A study of Mus musculus with 3 samples.

Results

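The caecum and the ileum of the mouse embryo were compared at E13.5, counted in days of embryonic development, across all genes of the table that the authors deposited, with the weight on genes outside the Hox clusters. The libraries were chosen by their labels, and 2 of the 3 libraries of the series entered. A gene was compared where the higher of the pair held at least 20 counts, which left 17827 of 33762 features. Both embryonic tissues were wild type, of the strain given as Bl6/C57, and neither was treated. The caecum was taken as a whole, while the ileum is the last of 3 equal lengths of the small intestine. Its identity is thus presumptive and set by position. The third library, the colon of the same stage, strain and genotype, is given beside the others and enters no comparison.

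Polyadenylated RNA of each tissue was read as paired 100 bp reads, with 1 sample a tissue. The table holds 2 columns a tissue, which differ by less than counting error and were averaged into 1 library. The libraries held 50079617 counts for the ileum, 64439701 for the caecum and 50772855 for the colon. Levels are given in RPKM, reads scaled to gene length and to the size of the library, and always in the order ileum, caecum and colon. A fold is the ratio of counts scaled to library size, and the bracket after it is its 95% interval. That interval covers counting error alone. With 1 library a tissue there was no spread between samples, so no test was possible and no p-value is given. A gene is called apart at a fold of 2 or more, and "higher" or "lower" without another name means the caecum against the ileum.

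The caecum is a blind pouch that buds from the gut tube where the small and the large intestine meet. Its mesenchyme and epithelium exchange signals of the FGF, BMP, WNT, Hedgehog and retinoid families as it grows. The ileum is the last stretch of the small intestine. Its epithelium later takes up nutrients and bile acids, and its wall lays down rings of smooth muscle during this period of gestation.

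Of the genes compared, 1268 were apart, which is 7.11% of them. Higher in the caecum were 819 genes (4.59%), and lower were 449 (2.52%). The whole interval lay beyond a fold of 2 for 397 of the higher and 233 of the lower genes. Most genes apart were scarce. Among the 3236 genes that reached less than 1 RPKM in either library, 500 were higher and 209 lower. Among the 763 genes at 100 RPKM or more, 4 were higher and 6 lower. The median log2 fold over all compared genes was 0.01, and the middle part of the genes, from the 25th to the 75th percentile, lay between -0.18 and 0.21. Each library held reads of Xist, with 48888, 56279 and 63064 counts, and of Y-linked Ddx3y, with 1716, 1946 and 969 counts, and so held RNA of both sexes. Epcam, the surface protein of epithelium, was at 49.99, 38.8 and 36.3 RPKM, and Cdx2, the factor of intestinal identity, at 17.5, 18.8 and 9.87 RPKM, so intestinal epithelium was read in all 3. Of the markers of pancreas, stomach and kidney with gonad, only 5 of 19, 5 of 17 and 6 of 20 reached the minimum. Of those compared, 2, 0 and 1 were higher and 0, 1 and 0 lower. Since whole segments were read, fewer cells of a type and less RNA per cell cannot be told apart.

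**Figure D1:**
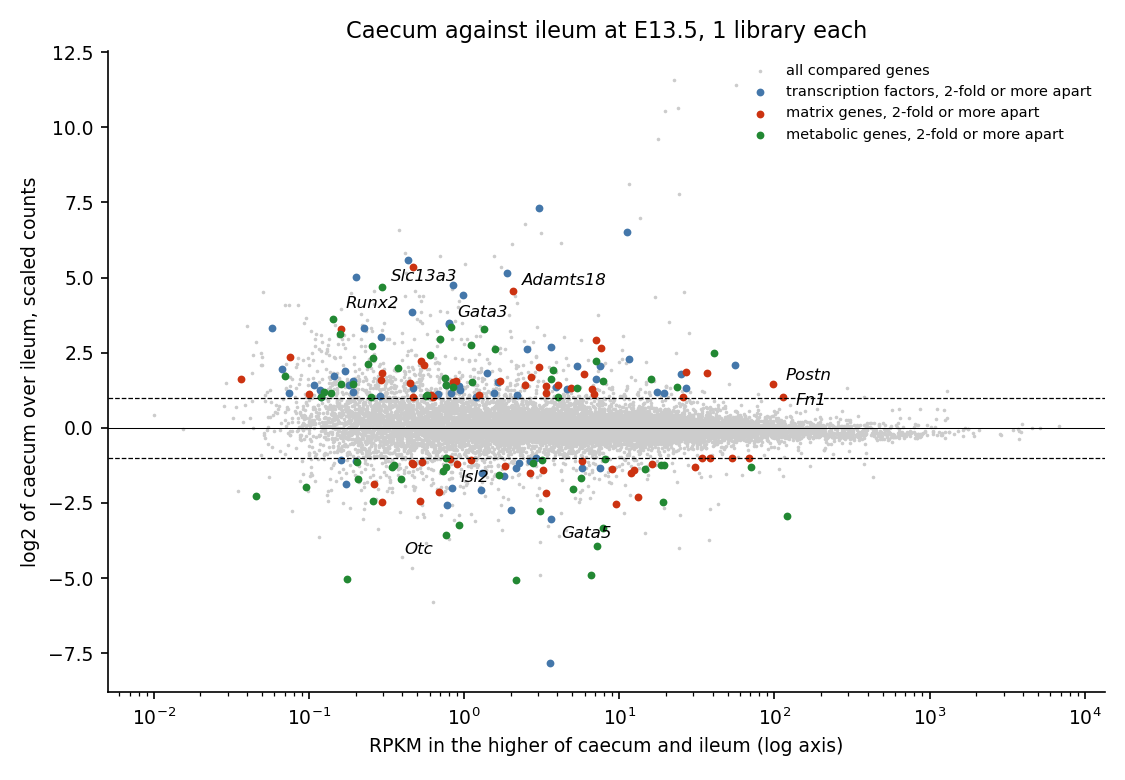
Each point is a gene, placed by its RPKM in the higher of the 2 libraries (log axis) and by the log2 of caecum over ileum (scaled counts, 1 library each). Coloured points are transcription factors, matrix genes and metabolic genes 2-fold or more apart, beyond the dashed lines; most of the genes apart lie at low RPKM, while Postn and Fn1 are apart at 98.1 and 114 RPKM in the caecum.

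Transcription factors were apart more often toward the caecum than toward the ileum. Of 878 factors of 12 families that were matched in the table, 688 were compared. Of these, 48 were higher (6.98%) and 17 lower (2.47%), beside 4.59% and 2.52% of all genes, so the lower share was that of genes at large. Shares of lists, here and below, are not matched for level. Among all genes under 1 RPKM, 15.5% were higher and 6.46% lower. With a minimum of 100 counts, 31 factors were higher. The median log2 fold of the compared factors was 0.11. The homeobox genes outside the Hox clusters held the most members apart. Of 141 matched, 70 were compared, with 14 higher (20%) and 5 lower (7.14%).

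**Figure D2:**
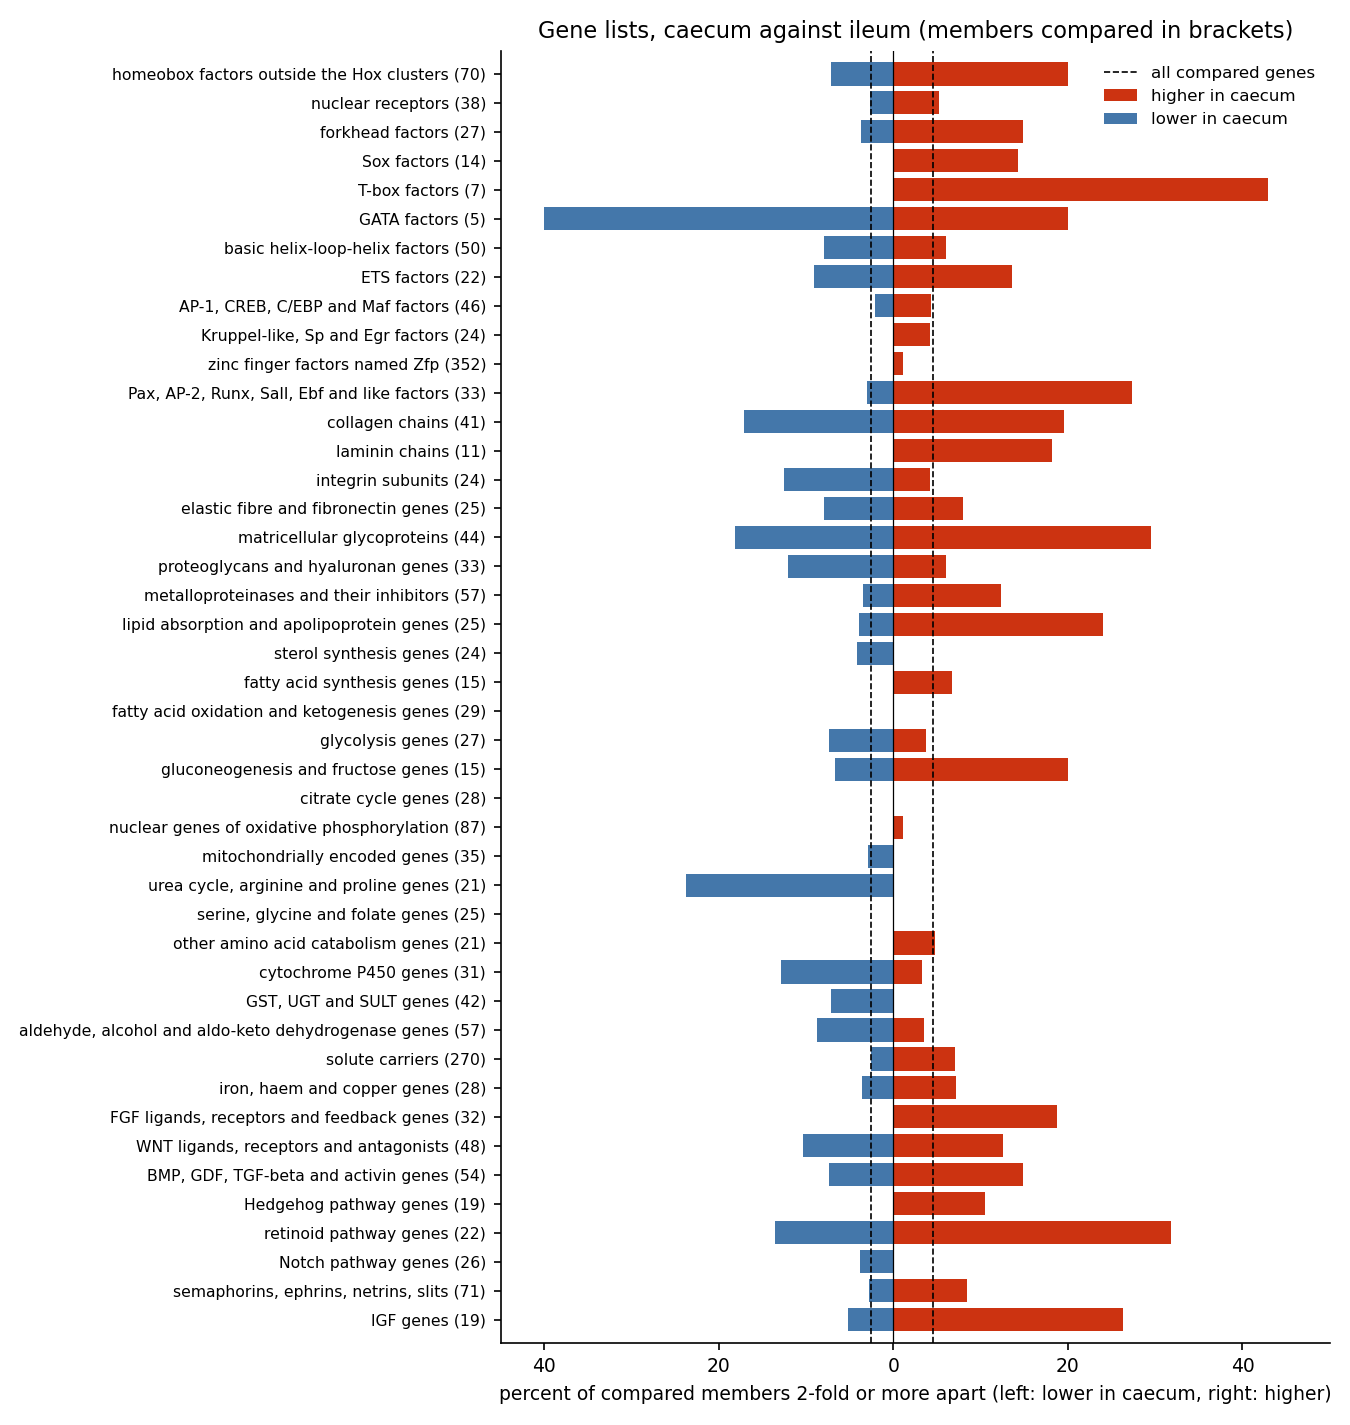
Bars give, for each gene list, the percent of compared members 2-fold or more higher (right) or lower (left) in the caecum, and dashed lines give the same for all compared genes at 4.59% and 2.52%. The urea cycle list reaches 23.8% on the lower side with 0 higher, and the lists of fatty acid oxidation, citrate cycle and serine and folate genes have 0 members apart.

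Among the homeobox genes with the most reads, Zfhx4, a large zinc finger homeobox factor, was at 10.8, 27.1 and 23.7 RPKM, 2.48-fold (2.42 to 2.55) higher, and the colon lay near the caecum. Satb1, a chromatin organizer, was at 8.51, 19.4 and 7.51 RPKM, 2.25-fold (2.17 to 2.34) higher, with ileum and colon alike and the caecum alone high.

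The POU factors Pou3f3 and Pou4f2, both known from neurons, were close to absent from the ileum. Pou3f3 had 8, 372 and 402 counts, 35.8-fold (18 to 83.4) higher. Pou4f2 had 5, 175 and 217 counts, 26.9-fold (11.3 to 83.9) higher. For both, the colon was as high as the caecum or higher. Lmx1a, a LIM homeobox factor, had 6, 64 and 7 counts, 8.2-fold (3.57 to 23.2) higher, and here the caecum alone was high. Prrx2, a factor of limb and craniofacial mesenchyme, had 38, 176 and 78 counts, 3.56-fold (2.5 to 5.2) higher. Other homeobox genes higher in the caecum were Six2, Prrx1, Pitx1, Meox2, Dlx5, Emx1 and Six4, of which Six4 was the least apart, at 2.02-fold (1.68 to 2.43).

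On the ileum side stood Cdx1, Alx4, Isl2, Mnx1 and Pou2f3. Alx4, an aristaless-like factor of mesenchyme, had 273, 60 and 8 counts, 5.92-fold (4.46 to 7.96) lower. Mnx1, a factor of motor neurons and of the early gut and pancreas, had 208, 90 and 38 counts, 3.01-fold (2.34 to 3.89) lower. In these genes the ileum was high and the colon low. Isl2, a LIM homeobox factor, had 92, 30 and 810 counts, 3.99-fold (2.62 to 6.24) lower, so the caecum was the lowest of the 3 while the colon was by far the highest. Pou2f3, the factor of tuft cells, was scarce at 28, 17 and 4 counts. The abundant homeobox genes lay within 2-fold, among them Meis2 at 37.5, 55.7 and 43.9 RPKM, Pbx2 at 46.8, 58.7 and 48.6 RPKM and Tshz2 at 42.8, 58.3 and 54.3 RPKM.

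The GATA factors, zinc finger proteins that bind the sequence GATA, split in direction. Of 5 compared, 1 was higher (20%) and 2 were lower (40%), beside 4.59% and 2.52% of all genes. Gata5, a factor of endoderm and heart, was at 3.65, 0.445 and 0.334 RPKM, 8.28-fold (6.65 to 10.4) lower. The colon was lowest for Gata5. Gata4, also on the ileum side, had 702, 4 and 58 counts, with a log2 fold of -7.835 and the caecum lowest. Gata3, a factor of lymphoid cells and the nephric duct among others, had 14, 204 and 54 counts, 11.2-fold (6.53 to 20.9) higher. Gata6, a factor found along the whole gut, was at 4.96, 4.3 and 4.31 RPKM and lay within 2-fold. Gata2, a factor of blood and endothelium, did too, at 0.515, 0.458 and 0.532 RPKM.

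A mixed list of Pax, AP-2, Runx, Tead, Gli, Zic, Snai, Zeb, Sall, Ebf and NFI factors had 9 higher and 1 lower of 33 compared. These were 27.3% and 3.03%, beside 4.59% and 2.52% of all genes. Runx2, the factor of bone formation, had 14, 265 and 76 counts, 14.6-fold (8.52 to 27) higher, and Supt3h overlaps it on the other strand. Ebf1, a factor of B cells and stroma, had 202, 1608 and 384 counts, 6.12-fold (5.28 to 7.12) higher. The colon lay between the other libraries for both. Of the spalt-like factors, Sall1 was at 0.563, 3.64 and 0.996 RPKM, 6.39-fold (5.38 to 7.63) higher. Sall4 was at 1.27, 5.31 and 2.74 RPKM, 4.14-fold (3.69 to 4.65) higher. Sall3 was nearly absent, with 2, 26 and 14 counts. All spalt-like genes apart thus had the caecum highest. Tcfap2a (now Tfap2a), Tcfap2b, Glis1 and Pax2 were the other members higher in the caecum, none of them above 100 counts there. Nfix, a nuclear factor I gene, was the only lower member, at 2.16, 0.858 and 1.94 RPKM, 2.54-fold (2.26 to 2.87) lower.

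The remaining families were mostly within 2-fold. Of 27 forkhead factors compared, 4 were higher (14.8%) and 1 was lower (3.7%), beside 4.59% and 2.52% of all genes. Foxd2 had 6, 167 and 311 counts, 21.4-fold (9.63 to 59.1) higher, close to absent from the ileum and highest in the colon. Foxa2, a factor of endoderm, had 68, 254 and 412 counts, 2.87-fold (2.19 to 3.81) higher, again below the colon. Foxj1, the factor of motile cilia, and Foxc2 were 2.22-fold (1.74 to 2.85) and 2.02-fold (0.859 to 5.27) higher, the second with an interval that included 1. Foxl1, a marker of the mesenchyme beneath the epithelium, had 159, 103 and 181 counts and was just past the fold of 2, at 2.01-fold (1.56 to 2.6) lower. Foxc2 and Foxl1 both share their position with the feature Gm20388.

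Of 14 Sox factors, 2 were higher (14.3%), beside 4.59% of all genes. Sox11, a factor of immature neurons and mesenchyme, was at 7.49, 17.4 and 8.57 RPKM, 2.3-fold (2.12 to 2.51) higher, and the caecum alone was high. Sox30 was scarce at 6, 21 and 22 counts. The T-box list had 3 higher (42.9%) of 7 compared, Tbx1, Tbx20 and Tbx22, and each had fewer than 40 counts in the caecum. Sp6, a zinc finger factor known from teeth and limb, had 14, 198 and 87 counts, 10.9-fold (6.33 to 20.3) higher. It was the only 1 of 24 Kruppel-like, Sp and Egr factors apart, but another transcript overlaps it, as described further on.

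Among 50 basic helix-loop-helix factors, 3 were higher (6%) and 4 lower (8%), beside 4.59% and 2.52% of all genes. Scx, the tendon factor scleraxis, was at 1.85, 4.6 and 4.41 RPKM, 2.47-fold (1.98 to 3.1) higher, and it lies within Bop1 on the other strand. Twist1 and Bhlhe41 were the others. Ascl2, a factor of intestinal stem cells and of the placenta, had 104, 32 and 12 counts, 4.23-fold (2.82 to 6.5) lower. Ahr, the aryl hydrocarbon receptor, was at 2.25, 1.01 and 1.64 RPKM, 2.24-fold (1.98 to 2.54) lower. Npas4, a gene induced by activity in neurons, had 214, 98 and 90 counts, 2.84-fold (2.23 to 3.65) lower, and the fourth gene, Bhlhe22, had 10 counts in the caecum. Ileum values were the highest of the 3 in all 4.

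Factors of the gut epithelium were among those lower in the caecum. Hnf4g, a nuclear receptor of enterocytes, was at 5.73, 2.27 and 1.6 RPKM, 2.54-fold (2.31 to 2.8) lower. Elf3, an ETS factor of epithelia, was at 7.56, 3.02 and 4.28 RPKM, 2.53-fold (2.23 to 2.86) lower. Cebpa, a factor of liver, fat and myeloid cells, was at 2.65, 1.24 and 2.0 RPKM, 2.16-fold (1.82 to 2.58) lower. For Hnf4g the colon was lower still, and for Elf3 and Cebpa it lay between. Spdef, the ETS factor of goblet and Paneth cells, had 40, 116 and 31 counts, 2.23-fold (1.54 to 3.28) higher, the other way round. Over a list of 30 epithelial markers, all of which were compared, 2 were higher (6.67%) and 4 lower (13.3%), beside 4.59% and 2.52% of all genes. Their median log2 was 0.07, and their summed level was 0.0938%, 0.0889% and 0.105% of all RPKM. Spic, a factor of macrophages, was scarce and lower. In all, 3 of 22 ETS factors were higher and 2 lower, with Etv4 and Etv5, targets of FGF signals, on the higher side. Of 46 leucine zipper factors, 2 were higher and 1 lower, with Hlf 2.14-fold (1.88 to 2.43) higher and Cebpa on the lower side. Of 38 nuclear receptors, Hnf4g was the lower one, and Rxrg and Nr4a3 were higher, the second with 13, 56 and 6 counts and 3.31-fold (1.79 to 6.6) higher.

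The largest family, the zinc finger genes named Zfp, differed little and in a common direction. Of 352 compared, 4 were higher (1.14%) and 0 lower, beside 4.59% and 2.52% of all genes. Yet 252 had a log2 fold above 0 and 100 below it, with a median of 0.11 against 0.01 for all genes. The 4 members apart were Zfp536, Zfp663, Zfp600 and Zfp42. Zfp536, a repressor of neuronal differentiation, was at 1.5, 3.89 and 1.64 RPKM, 2.57-fold (2.33 to 2.84) higher. The median stayed above 0 under the other scalings tried, between 0.11 and 0.13.

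**Figure D3:**
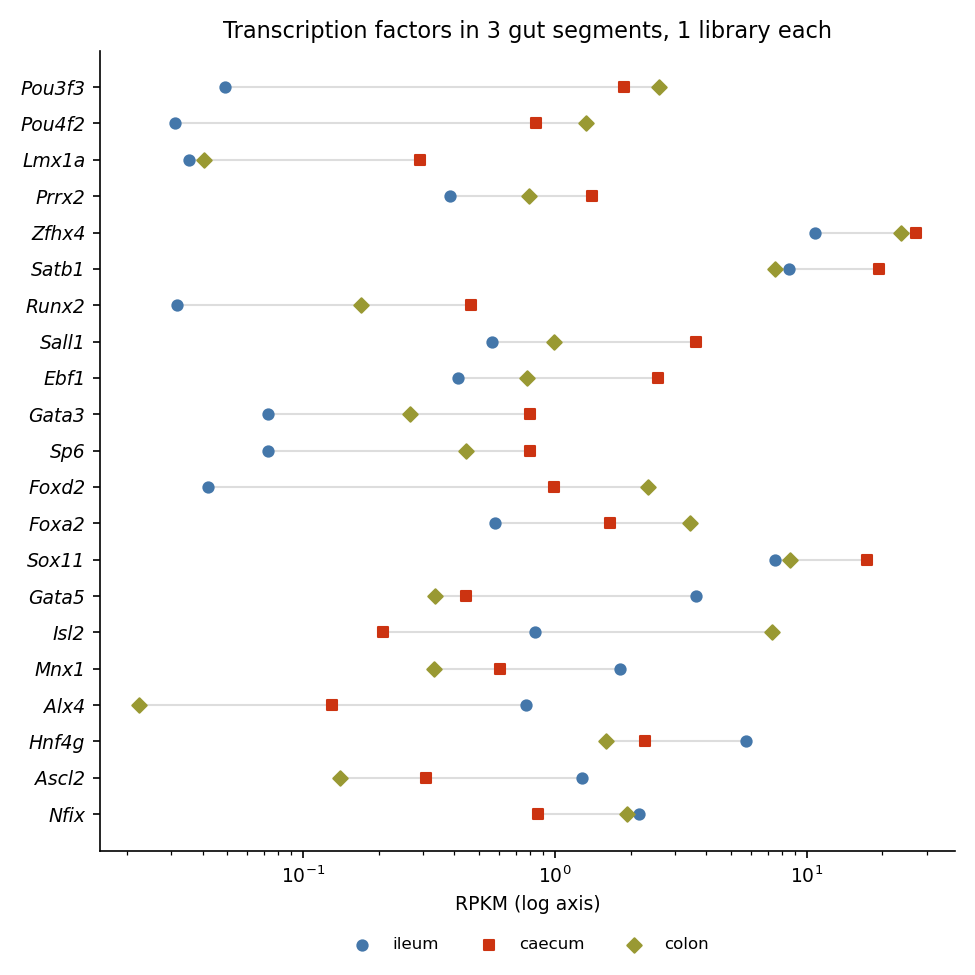
RPKM (log axis) of transcription factors in the ileum, caecum and colon libraries, 1 point a library. Zfhx4 is highest in the caecum at 27.1 RPKM, Gata5 is highest in the ileum at 3.65, and Isl2 is highest in the colon at 7.27.

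Matrix genes were apart more often than genes at large, in both directions. Of 278 matched, 235 were compared, of which 35 were higher (14.9%) and 26 lower (11.1%), beside 4.59% and 2.52% of all genes. Their median log2 was 0.08, so the list as a whole leaned little to either side. The lists by kind of protein show which genes made up each side.

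Collagens, the fibres and sheets of the matrix, had 8 higher and 7 lower of 41 compared. These were 19.5% and 17.1%, beside 4.59% and 2.52% of all genes. Basement membrane chains were among those on the caecum side. Col4a6 was at 1.19, 7.59 and 2.9 RPKM, 6.31-fold (5.73 to 6.95) higher. Its partner Col4a5, which lies head to head with it, was at 10.3, 36.9 and 24.5 RPKM, 3.54-fold (3.41 to 3.68) higher. In both the colon lay between ileum and caecum. Another such pair, Col4a3 and Col4a4, was scarce, with 6, 24 and 34 counts and 6, 40 and 53 counts, and likewise higher. The widely made chain Col4a1 was at 46.6, 44.4 and 44 RPKM, nearly equal in the 3 libraries, and its fold was 1.06-fold (1.04 to 1.08) on the lower side. Col9a1, a cartilage collagen, was at 3.12, 6.92 and 15.1 RPKM, 2.19-fold (2.02 to 2.38) higher, and highest in the colon. Col19a1 was the collagen farthest apart on this side, with 4, 210 and 8 counts, 40.4-fold (15.5 to 149.5) higher. Col22a1 and Col20a1 were also higher.

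Lower in the caecum were Col6a1, Col6a2 and Col6a4, microfibril collagens, of which Col6a1 and Col6a2 lay just past the fold of 2. Col6a1 was at 68.4, 34.4 and 34.7 RPKM, 2.01-fold (1.96 to 2.06) lower. Col6a2 was at 38.3, 19.3 and 19.4 RPKM, 2.01-fold (1.96 to 2.06) lower. Col6a4 was at 12.4, 4.72 and 8.43 RPKM, 2.65-fold (2.53 to 2.78) lower. The ileum was the high library in all 3, and the colon matched the caecum for Col6a1 and Col6a2. Col14a1, which coats fibrils, was at 30.8, 12.5 and 23.5 RPKM, 2.5-fold (2.42 to 2.58) lower. Col8a1, Col24a1 and Col28a1 were the others. The fibrillar collagens with the most reads were within 2-fold, Col3a1 at 256, 268 and 292 RPKM, Col1a1 at 106, 67.9 and 98.6 RPKM and Col1a2 at 46.2, 77.8 and 47.5 RPKM. The last pair differed in direction, since Col1a1 was 1.58-fold (1.55 to 1.6) lower and Col1a2 1.67-fold (1.64 to 1.69) higher, although their chains join in 1 protein.

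Adhesive glycoproteins were the matrix list with the most members apart, with 13 higher and 8 lower of 44 compared. These were 29.5% and 18.2%, beside 4.59% and 2.52% of all genes. Postn, periostin of fibroblasts, was at 35.1, 98.1 and 51.1 RPKM, 2.76-fold (2.71 to 2.82) higher. Frem1, a protein of the epithelial basement membrane, was at 7.49, 27.1 and 9.69 RPKM, 3.58-fold (3.47 to 3.69) higher. Hmcn1, hemicentin, was at 0.829, 2.71 and 2.79 RPKM, 3.23-fold (3.0 to 3.48) higher. The caecum was highest for Postn and Frem1, while for Hmcn1 the colon equalled it. Egfl6 was at 0.735, 3.06 and 1.73 RPKM, 4.1-fold (3.3 to 5.13) higher, and Spock1 and Ecm1 were 2.52-fold (2.26 to 2.81) and 2.45-fold (2.17 to 2.78) higher. Matn4, matrilin of cartilage and other matrices, was at 1.48, 4.02 and 10.3 RPKM, 2.68-fold (2.39 to 3.01) higher and higher still in the colon. Tnc, Vtn, Reln, Nov, Comp and Matn3 completed the side.

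The ileum side of the glycoproteins held tenascins and thrombospondins. Tnn, tenascin N, was at 9.53, 1.65 and 0.387 RPKM, 5.85-fold (5.36 to 6.39) lower. Tnxb, tenascin X, was at 2.67, 0.956 and 0.95 RPKM, 2.82-fold (2.59 to 3.08) lower. Tnr was 2.1-fold (1.73 to 2.55) lower. Tnc, of the same family, stood on the other side, so the tenascins lay on both sides. Thbs4 was at 13.3, 2.73 and 2.08 RPKM, 4.91-fold (4.48 to 5.39) lower. Thbs2 was at 8.95, 3.49 and 6.14 RPKM, 2.6-fold (2.43 to 2.77) lower. Wisp1 (now Ccn4), a WNT-induced secreted protein, was at 11.9, 4.27 and 8.65 RPKM, 2.82-fold (2.65 to 3.0) lower. The ileum was the highest library for each of these genes. Mgp, an inhibitor of calcification, was at 16.3, 7.08 and 13.3 RPKM, 2.33-fold (2.0 to 2.71) lower, and Spp1, osteopontin, was scarce and lower.

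Fibronectin, Fn1, the main adhesive protein of early mesenchyme, was at 55.6, 114 and 97 RPKM, 2.03-fold (2.0 to 2.06) higher. It was the most abundant matrix gene apart, and the colon lay near the caecum. Of 25 elastic fibre and fibronectin genes, Emilin2 was also higher, and Emilin3 and Loxl4 were lower. Emilin3 lay at the edge of the threshold, at 53.1, 26.8 and 36.3 RPKM and 2.01-fold (1.94 to 2.07) lower. Of 11 laminin chains 2 were higher (18.2%) and 0 lower, beside 4.59% and 2.52% of all genes. Lama2, the chain of muscle and nerve sheaths, was at 0.91, 2.48 and 2.07 RPKM, 2.7-fold (2.43 to 3.01) higher, and Lamc3 had 5, 63 and 13 counts, 9.69-fold (3.94 to 30.9) higher. The abundant Lamb1 and Lamc1 were within 2-fold, at 42, 36.2 and 33.1 RPKM and 35, 25.9 and 31 RPKM.

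Integrins, the cell surface receptors for matrix, had 1 higher and 3 lower of 24 compared. These were 4.17% and 12.5%, beside 4.59% and 2.52% of all genes. Itga11, a collagen receptor of fibroblasts, had 176, 52 and 68 counts, 4.4-fold (3.21 to 6.12) lower. Itgb3 was at 3.21, 1.22 and 3.11 RPKM, 2.66-fold (2.38 to 2.98) lower, and Itgb6 was 2.07-fold (1.72 to 2.51) lower. Itgb2, the chain of white blood cells, had 24, 88 and 36 counts, 2.82-fold (1.78 to 4.63) higher. Itgb1, which pairs with most alpha chains, was at 220.1, 181 and 211 RPKM and within 2-fold.

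Among 33 proteoglycan and hyaluronan genes, 2 were higher (6.06%) and 4 lower (12.1%), beside 4.59% and 2.52% of all genes. Cd44, the hyaluronan receptor, was at 1.72, 5.96 and 2.55 RPKM, 3.43-fold (3.13 to 3.75) higher, with the caecum highest. Gpc2 was at 12.8, 26 and 13.8 RPKM, 2.01-fold (1.95 to 2.08) higher. Aspn, asporin, was at 3.39, 0.771 and 3.29 RPKM, 4.46-fold (3.62 to 5.54) lower, and the caecum was the only low library. Epyc, Gpc4 and Cspg5 were the other lower members. Of 57 metalloproteinases and inhibitors, 7 were higher (12.3%) and 2 lower (3.51%). Adamts18, a secreted protease, had 26, 796 and 1144 counts, 23.5-fold (15.9 to 36.3) higher, and the colon held more still. Adamtsl3 had 44, 264 and 72 counts, 4.61-fold (3.34 to 6.5) higher. Adamts19, Mmp28, Adamtsl4, Adam1a and Adam1b were the others, and Adamts14 and Adamdec1 were lower. Mmp2, a gelatinase, and its activator Mmp14 lay within 2-fold at 29.6, 35.5 and 29.9 RPKM and 30.5, 48.3 and 45.3 RPKM.

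**Figure D4:**
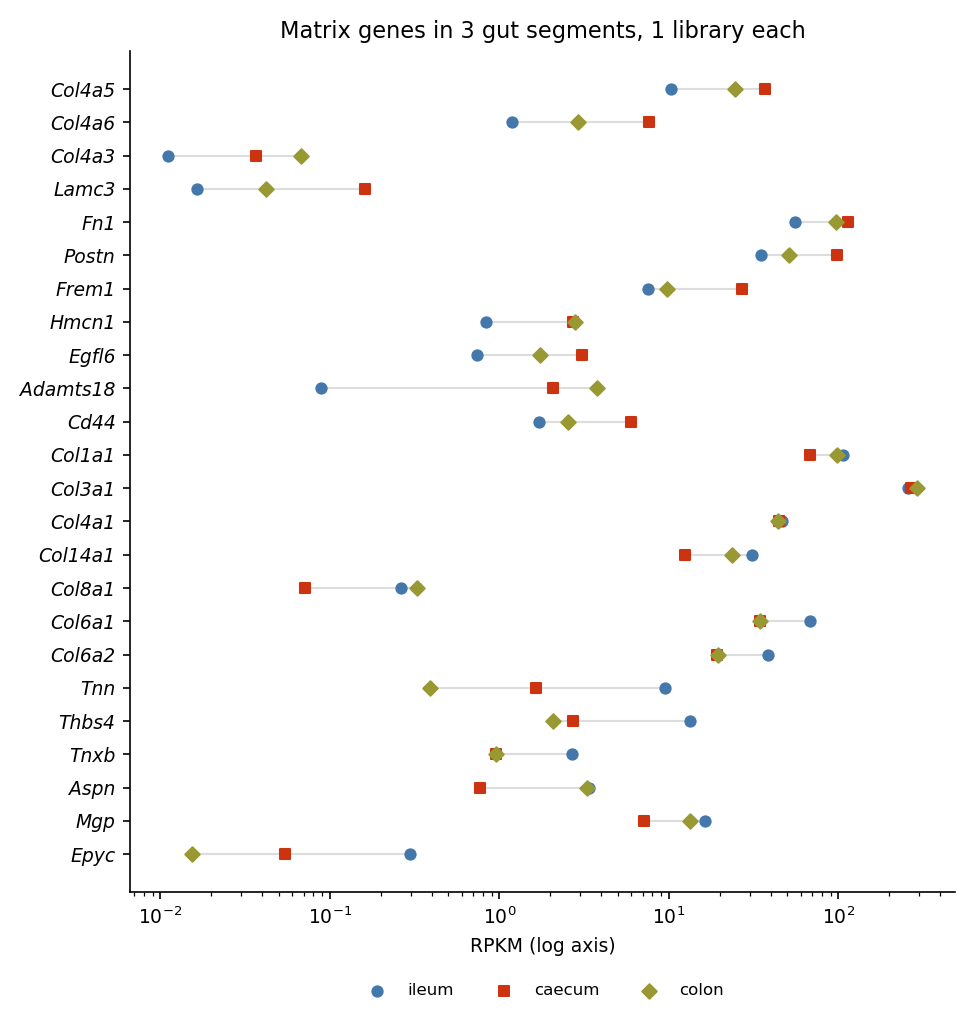
RPKM (log axis) of matrix genes in the ileum, caecum and colon libraries, 1 point a library. Col4a5, Col4a6, Frem1 and Postn are highest in the caecum, Tnn, Thbs4, Col6a1 and Col6a2 are highest in the ileum, and Col3a1 and Col4a1 are nearly level.

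Markers of smooth muscle were lower in the caecum, beside part of the matrix genes. Of 24 markers of smooth muscle, all compared, 0 were higher and 8 lower (33.3%), beside 4.59% and 2.52% of all genes. Their median log2 was -0.59 and their summed level 0.585%, 0.343% and 0.398% of all RPKM. Acta2, smooth muscle actin, was at 379, 168 and 252 RPKM, 2.29-fold (2.25 to 2.33) lower. Mylk, the myosin light chain kinase, was at 79.3, 28.7 and 37 RPKM, 2.79-fold (2.75 to 2.84) lower. Tagln, transgelin, was at 107, 42.2 and 54.1 RPKM, 2.57-fold (2.48 to 2.67) lower. Lmod1 and Ldb3 were lower too, besides Actg2, Myh11 and Cnn1. Markers of pericytes, the cells around small vessels, had 0 higher and 3 lower (27.3%) of 11 compared. Of these, Abcc9 was at 23.4, 6.84 and 22.1 RPKM, 3.46-fold (3.32 to 3.6) lower, and Kcnj8 at 8.63, 2.52 and 7.48 RPKM, 3.46-fold (3.06 to 3.92) lower. These form the subunits of 1 potassium channel, and only the caecum was low. The list of skeletal and cardiac muscle genes had 2 higher (13.3%) and 3 lower (20%) of 15 compared, with a median log2 of -0.18. Actc1, a sarcomere actin that early smooth muscle can also make, was 4.66-fold (3.54 to 6.2) lower. Tnnt2 and Myl4 were lower as well, at 6.78, 1.56 and 2.7 RPKM and 1.03, 0.281 and 0.17 RPKM. The troponin Tnni1 and the myosin Myh8 were the members higher, with 33, 110 and 131 counts and 7, 32 and 24 counts. The mesenchyme list had 4 higher (22.2%) and 1 lower (5.56%) of 18, and the list of blood vessel endothelium had 0 apart of 20. The part of the muscle markers in the matrix values was not tested.

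Metabolic genes were higher about as often as genes at large and somewhat more often lower. Of 1010 matched, 758 were compared, with 35 higher (4.62%) and 31 lower (4.09%), beside 4.59% and 2.52% of all genes. Their median log2 was -0.08. The lists differed from each other, as the points for each member show.

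**Figure D5:**
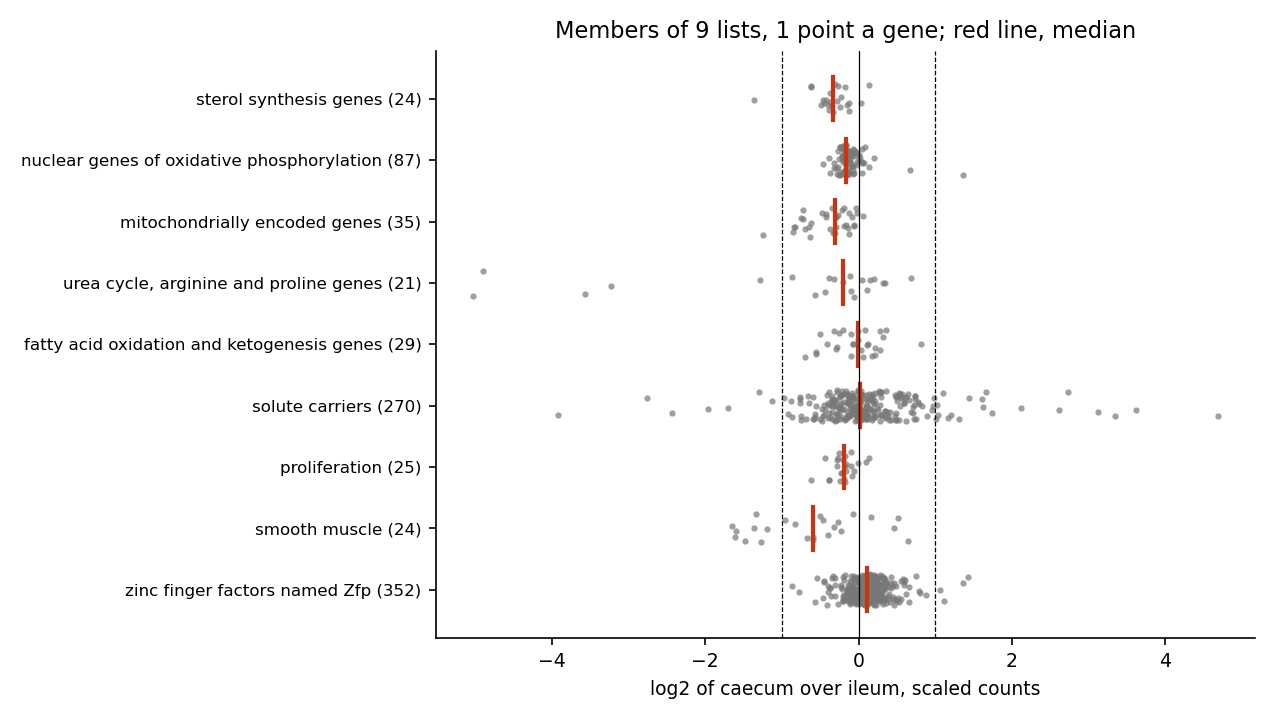
Each point is a gene of the named list, placed by the log2 of caecum over ileum (scaled counts, 1 library each), with red lines at the list medians and dashed lines at a fold of 2. The sterol list lies almost wholly below 0 with a median of -0.34, the urea cycle list has members far to the left, and the Zfp list is shifted to 0.11.

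The urea cycle, arginine and proline list had 5 lower (23.8%) and 0 higher of 21 compared, beside 2.52% and 4.59% of all genes. The urea cycle turns ammonia into urea, and its early steps run in mitochondria of liver and intestine, where they also feed citrulline synthesis. Otc, ornithine carbamoyltransferase, had 164, 18 and 9 counts, 11.9-fold (7.27 to 20.5) lower. Nags, which makes the activator of Cps1, had 25, 1 and 2 counts, 32.5-fold (5.32 to 1335) lower. Oat, ornithine aminotransferase, was at 70.6, 29.2 and 40.8 RPKM, 2.45-fold (2.36 to 2.54) lower. Like Cps1 itself, these enzymes sit in mitochondria, and each was highest in the ileum. Prodh2, a hydroxyproline dehydrogenase, had 115, 16 and 0 counts, 9.35-fold (5.52 to 16.9) lower. Of the other abundant members, Odc1 of polyamine synthesis at 51.9, 49.2 and 55.3 RPKM, Ckb, a creatine kinase, at 41.7, 33.7 and 23.2 RPKM, and Aldh18a1 of proline synthesis at 18.2, 14 and 13.4 RPKM lay within 2-fold.

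The sterol list showed small differences of a common sign. Of 24 compared, 1 was lower (4.17%), with a log2 fold of -1.357, and 0 were higher, beside 2.52% and 4.59% of all genes. In all, 22 had a log2 fold below 0, and the median was -0.34. Hmgcs1 and Sc5dl of this list were not matched in the table. Sqle, squalene epoxidase, was at 31.7, 25.9 and 25 RPKM, 1.24-fold (1.2 to 1.28) lower. Srebf2, the gene of the sterol-regulated factor SREBP2, was at 39.7, 41.1 and 36.7 RPKM and 1.02-fold (0.997 to 1.05) on the higher side. The list median kept its sign under every scaling tried, between -0.34 and -0.32. Proliferation genes, a list not tied to sterols, also leaned that way, with 23 of 25 below 0 and a median of -0.19, and their part in these values was not tested.

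Respiration differed little in the same direction. Of 87 nuclear genes of oxidative phosphorylation, 1 was higher (1.15%) and 0 lower, beside 4.59% and 2.52% of all genes. Of the 87, 74 lay below 0 with a median of -0.16. Atp5b, a subunit of ATP synthase, was at 312, 272 and 293 RPKM, 1.16-fold (1.15 to 1.17) lower. Cox7a1, the muscle form of a cytochrome oxidase subunit, was the member apart, at 6, 20 and 27 counts with an interval that included 1. Of 35 mitochondrially encoded genes, 34 lay below 0 with a median of -0.31, and only a transfer RNA, mt-Tp, passed a fold of 2. Their summed level was 8.60%, 8.33% and 7.98% of all RPKM, and transfer RNAs are shorter than a read of 100 bases. Among 28 citrate cycle genes 0 were apart and 24 lay below 0. Among 29 genes of fatty acid oxidation 0 were apart and 16 lay below 0. The small shift below 0 was not particular to respiration. The 79 features with ribosomal protein symbols had a median of -0.23 and a range from -1.04 to -0.04. What these lists share was not tested.

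Sugar metabolism held a few genes apart. Slc2a3, a glucose transporter of neurons and placenta, was at 5.17, 16.1 and 9.39 RPKM, 3.07-fold (2.92 to 3.23) higher. Pklr, the pyruvate kinase of liver and red cells, was at 3.17, 1.52 and 1.44 RPKM, 2.11-fold (1.83 to 2.43) lower. The common forms Ldha and Pkm2 (now Pkm) were within 2-fold at 215, 155 and 152 RPKM and 213, 211 and 193 RPKM. Fbp2, fructose bisphosphatase of muscle, was at 5.01, 1.25 and 2.81 RPKM, 4.07-fold (3.26 to 5.12) lower. G6pc2, Slc2a5 and Pck1 were higher, the first with 16, 141 and 46 counts and 6.78-fold (4.03 to 12.2) higher.

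Carriers of lipids were the metabolic list with the largest share higher, 6 of 25 compared, with 1 lower. Rbp4, the retinol carrier of blood, was at 7.24, 40.6 and 1.96 RPKM, 5.55-fold (5.04 to 6.13) higher. Apoa1, the apolipoprotein of HDL, was at 2.65, 7.83 and 2.41 RPKM, 2.93-fold (2.46 to 3.5) higher. For both the caecum alone was high. Rbp2, the cellular retinol-binding protein of enterocytes, had 0, 30 and 8 counts, at least 7.69-fold higher than in the ileum, set against a floor of 3 counts. Apoa2, Apom and Mogat1 were scarce and higher. Fabp2, of the same family as Rbp2, was lower, with a log2 fold of -5.08, the farthest from 0 in this list. Apoe was within 2-fold at 23.1, 34.3 and 19 RPKM. Markers of liver, which makes several of these proteins, were on the same side, with 6 higher (50%) and 0 lower of 12 compared of 20. Of all genes 4.59% were higher and 2.52% lower. The summed level of the liver markers was 0.0141%, 0.0288% and 0.0159% of all RPKM. Among them Afp was at 4.15, 23.4 and 22.7 RPKM, 5.58-fold (5.05 to 6.19) higher, Ambp was at 2.1, 10.5 and 3.1 RPKM, 4.94-fold (4.15 to 5.91) higher, and Trf was at 9.08, 23.7 and 10.7 RPKM, 2.58-fold (2.44 to 2.74) higher. Alb, the defining liver gene, had 6, 8 and 36 counts, and Ahsg had 0 in each library. Afp, Apoa1 and Rbp4 are also known from yolk sac endoderm. The part of liver or other tissue in these values was not tested.

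Retinoids, the vitamin A derivatives that pattern the gut, formed a list with 7 higher (31.8%) and 3 lower (13.6%) of 22 compared. Of all genes 4.59% were higher and 2.52% lower. On the carrier side, Crabp2, which brings retinoic acid to its receptors, was at 1.81, 21.1 and 4.39 RPKM, 11.5-fold (9.56 to 14) higher. Crabp1, its paralogue, was at 6.93, 15.6 and 4.7 RPKM, 2.24-fold (1.95 to 2.57) higher. Of the enzymes that break down retinoic acid, Cyp26a1 had 12, 154 and 14 counts, 9.87-fold (5.49 to 19.5) higher, while Cyp26b1 was at 5.67, 1.82 and 2.05 RPKM, 3.16-fold (2.85 to 3.5) lower. The paralogues thus differed in direction. Of the enzymes that make retinoic acid, Aldh1a3 was scarce and 2.74-fold (1.55 to 5.11) higher and Aldh1a1 was lower, as was its paralogue Aldh1a7. Aldh1a2 was within 2-fold at 52.3, 34.6 and 41.2 RPKM, 1.53-fold (1.47 to 1.59) lower. Rdh10, which acts one step earlier, was at 34.2, 21.8 and 22.6 RPKM, 1.59-fold (1.54 to 1.65) lower. Rxrg, Rbp4 and Rbp2 were the other members higher in the caecum.

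Of 270 solute carriers compared of 368, 19 were higher (7.04%) and 7 lower (2.59%), beside 4.59% and 2.52% of all genes, so the lower share was close to that of genes at large. Slc13a3, a carrier of citrate cycle acids, had 3, 100 and 7 counts, 25.6-fold (8.52 to 126) higher. Slc14a1, a urea channel, had 16, 212 and 18 counts, 10.2-fold (6.13 to 18.2) higher. Slc45a3 had 43, 342 and 76 counts, 6.12-fold (4.44 to 8.61) higher. For these the colon lay near the ileum and the caecum alone was high. Slc47a1, an exporter of organic cations, had 0, 34 and 23 counts, at least 8.71-fold higher. Slc27a6, a fatty acid carrier, was at 1.17, 3.63 and 2.62 RPKM, 3.05-fold (2.54 to 3.69) higher. Besides Slc2a3, others higher were Slc1a2, Slc2a5, Slc2a6, Slc4a5, Slc7a3, Slc10a5, Slc16a5, Slc22a8, Slc22a23, Slc24a4, Slc38a5 and Slco1c1. On the ileum side, Slc28a2, a carrier of purine nucleosides, was at 3.09, 0.462 and 0.262 RPKM, 6.76-fold (5.57 to 8.25) lower. Slc25a21, a mitochondrial carrier, had 62, 15 and 6 counts, 5.38-fold (3.02 to 10.2) lower. Slc1a1, a glutamate carrier, Slc6a20a, Slc5a11, Slc17a9 and Slc4a10 were the others. Carriers with the most reads, such as Slc25a4 at 139, 118 and 119.8 RPKM, lay within 2-fold.

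Among enzymes that handle foreign compounds, steroids and aldehydes, most members apart were lower in the caecum. Of 31 cytochrome P450 genes compared of 97, 1 was higher (3.23%) and 4 lower (12.9%). Cyp26a1 was the higher one and Cyp26b1 was among the lower, both given above with the retinoids. Cyp3a13 was another lower member, at 1.67, 0.57 and 0.163 RPKM, 2.99-fold (2.37 to 3.78) lower. Of 42 glutathione, glucuronide and sulfate transferases, 0 were higher and 3 lower, led by Sult1d1 at 8.11, 4.0 and 2.3 RPKM, 2.05-fold (1.85 to 2.27) lower. Of 57 aldehyde, alcohol and aldo-keto dehydrogenases, 2 were higher (3.51%) and 5 lower (8.77%), and this list too shares members with the retinoids. Akr1c13 was at 19.4, 8.36 and 2.33 RPKM, 2.35-fold (2.15 to 2.57) lower, and the colon was lower still. Hsd11b2, which inactivates glucocorticoids, was at 1.5, 7.05 and 3.54 RPKM, 4.67-fold (3.9 to 5.63) higher, with the caecum highest. Me1, malic enzyme, was the only 1 of 15 fatty acid synthesis genes apart, at 0.98, 3.73 and 1.78 RPKM, 3.76-fold (3.19 to 4.44) higher. Brush border genes of enterocytes, which carry many such enzymes, had 1 higher (5.26%) and 4 lower (21.1%) of 19 compared, beside 4.59% and 2.52% of all genes. Their summed level was 0.0194%, 0.0157% and 0.0154% of all RPKM. Cdhr2, Amn and Enpep were among the lower ones. The part of the epithelium in the metabolic values was not tested.

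Signalling genes, given here for their place beside the factors and the matrix, had 40 higher (13.7%) and 16 lower (5.50%) of 291 compared, beside 4.59% and 2.52% of all genes. Of 48 WNT pathway genes compared, 6 were higher (12.5%) and 5 lower (10.4%). Among ligands and agonists, Wnt16 had 38, 512 and 44 counts, 10.4-fold (7.45 to 14.8) higher, and the agonist Rspo2 had 41, 428 and 60 counts, 8.03-fold (5.82 to 11.4) higher. Rspo1 and Rspo3 ran the other way, Rspo1 at 10.4, 4.0 and 4.77 RPKM, 2.64-fold (2.37 to 2.95) lower, and Rspo3 at 13.8, 6.16 and 2.2 RPKM, 2.27-fold (2.1 to 2.46) lower. Rspo4, with 1, 8 and 6 counts, was below the minimum. The receptor Lgr5 was on the ileum side with Rspo1 and Rspo3, at 1.66, 0.201 and 0.0163 RPKM, 8.36-fold (6.96 to 10.1) lower. Among antagonists Dkk1 and Wif1 were scarce and higher, at 5, 50 and 8 counts and 6, 55 and 15 counts, while Sfrp1 and Sostdc1 were lower. Lef1, a nuclear effector of the pathway, and the receptor Lgr6 completed the higher side, and Wnt5a, the most abundant ligand, was within 2-fold at 39, 50.4 and 21.8 RPKM.

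The BMP and activin list had 8 higher (14.8%) and 4 lower (7.41%) of 54, beside 4.59% and 2.52% of all genes. Fst, follistatin, an activin antagonist, was at 18.5, 51.2 and 11.7 RPKM, 2.74-fold (2.62 to 2.87) higher. Inhba, which encodes activin itself, had 12, 66 and 221 counts, 4.23-fold (2.27 to 8.6) higher. Gdf6, a relative of Gdf5, was at 1.55, 0.514 and 1.38 RPKM, 3.05-fold (2.44 to 3.82) lower, so this pair of ligands stood on opposite sides. Bmp3 was at 3.72, 1.78 and 0.313 RPKM, 2.12-fold (1.85 to 2.43) lower, and Grem1 and Chrdl2, BMP antagonists, were lower too. Fstl4, Gdf9, Gdf10, Gdf15 and Sost were the others higher. Of the 32 FGF genes, 6 were higher (18.8%) and 0 lower. They were the FGF family genes Fgf1, Fgf5, Fgf10 and Fgf12 and the targets Etv4 and Etv5. Fgf1 was at 0.20, 0.509 and 0.634 RPKM, 2.54-fold (1.82 to 3.62) higher, and highest in the colon. Of the 19 Hedgehog genes, 2 were higher (10.5%) and 0 lower. Scube3 was at 5.4, 14.9 and 11.1 RPKM, 2.73-fold (2.61 to 2.86) higher, and Scube1 at 2.23, 4.66 and 0.864 RPKM, 2.07-fold (1.92 to 2.23) higher. These secreted proteins help release the ligand, and the receptor Ptch1 was within 2-fold at 41, 47.2 and 46.5 RPKM.

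Igfbp5, a binder of insulin-like growth factors, was at 117, 292 and 181 RPKM, 2.48-fold (2.45 to 2.51) higher. Irs4, Igfbpl1, Pappa and Pappa2 were also higher of 19 genes around insulin-like growth factors, and Igfbp7 was lower. Dlk1, a Notch-like surface protein, was at 170.1, 71.2 and 94.7 RPKM, 2.42-fold (2.38 to 2.45) lower, the only 1 of 26 Notch pathway genes apart. Igf2 was at 1064, 1087 and 770.4 RPKM and level between caecum and ileum. Of the guidance genes, 6 of 71 were higher (8.45%) and 2 lower (2.82%), and 54 lay above 0 with a median of 0.30. Epha5, an ephrin receptor, had 76, 822 and 88 counts, 8.32-fold (6.57 to 10.7) higher, Slit3 was at 4.42, 11.3 and 6.18 RPKM, 2.52-fold (2.37 to 2.68) higher, and Epha3 was at 4.3, 1.3 and 3.05 RPKM, 3.36-fold (3.02 to 3.74) lower. Epha7, Robo1, Robo3 and Slit1 were also higher, and Unc5c was lower. Enteric neuron markers had 1 higher (4.17%) and 0 lower of 24, beside 4.59% and 2.52% of all genes. They made up 0.0590%, 0.0682% and 0.0315% of all RPKM. Nos1, the neuronal nitric oxide synthase, was the member apart, with 148, 1202 and 356 counts and 6.24-fold (5.26 to 7.46) higher.

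Outside these lists, the naming rule brought up several receptors and secreted proteins. Rgs6, a regulator of G protein signals, had 26, 1064 and 104 counts, 31.5-fold (21.4 to 48.4) higher. Grin2c, a glutamate receptor subunit, had 1, 124 and 11 counts, 95.3-fold (16.8 to 3795) higher. The peptide receptors Qrfpr and Trhr had 0 counts in the ileum. Against the floor of 3 counts, the 73 of Qrfpr in the caecum were at least 18.7-fold higher, and for Trhr with 68 the bound was 17.4-fold. In each of these the colon was far below the caecum. On the ileum side, Lect2, a secreted protein known from liver, had 149, 14 and 0 counts, 13.8-fold (8.0 to 25.9) lower. Clca1 (now Clca3a1), a chloride channel accessory protein, was at 3.48, 0.362 and 1.16 RPKM, 9.72-fold (7.8 to 12.2) lower. Tubal3, an alpha tubulin-like gene, and Cpa5, a carboxypeptidase, were 14.3-fold (6.95 to 34.2) and 13-fold (6.79 to 28) lower. By the difference in level rather than in fold, the gene with the most on the caecum side was Nnat, neuronatin, an imprinted gene of developing neurons and endocrine cells, at 552, 1306 and 1112 RPKM, 2.34-fold (2.32 to 2.37) higher. Nnat shares its position with Blcap and a small feature on the other strand, whose reads were not told apart.

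Unnamed transcripts, those known by a Gm number, a Riken clone or a clone name, were apart less often. Of the 3695 compared, 106 were higher (2.87%) and 62 lower (1.68%), beside 4.59% and 2.52% of all genes. Types were taken by identifier from the GENCODE vM21 annotation. The 1318 processed pseudogenes, copies of messenger RNAs set back into the genome, had 4 higher (0.303%) and 14 lower (1.06%). Features that the annotation now gives as coding had 50 higher (4.51%) and 24 lower (2.16%) of 1109, near the shares of all genes. Long intergenic RNAs, of which 65 were compared, had 4 higher (6.15%) and 4 lower (6.15%).

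Of the unnamed noncoding RNAs apart, Gm53, a long intergenic RNA, held the most counts in the caecum. It lies on chromosome 11 of mm9, plus strand, 96112419 to 96126182, and ends 6588 bases before Hoxb9. Gm53 had 20, 544 and 556 counts, 20.9-fold (13.4 to 34.5) higher. At 0.0978, 2.12 and 2.75 RPKM, the colon was highest and the ileum nearly empty. Hoxb9, its neighbour on the same strand, had 110, 650 and 264 counts, and Hoxb8, beyond it, had 1449, 508 and 142 counts and ran the other way. Gm14396, another long intergenic RNA, had 0, 493 and 40 counts, at least 126-fold higher. The 9130206I24Rik transcript, now named Foxd2os, lies on chromosome 4, plus strand, 114581862 to 114594572. It starts 358 bases from Foxd2, which runs in the other direction from 114581503 to 114578885. It had 8, 192 and 374 counts, 18.5-fold (9.18 to 43.4) higher, near the 21.4-fold of Foxd2. The starts of both RNAs are shown so that they can be recognised, the first 200 bases of 3257 and of 2908 in GENCODE vM21. The 250 bases before the start of Foxd2 (RefSeq, GRCm38.p6, chr4:114908899-114909148, minus strand) are shown as the side of the gene that faces the other transcript, and capitals mark CG pairs.
Gm53: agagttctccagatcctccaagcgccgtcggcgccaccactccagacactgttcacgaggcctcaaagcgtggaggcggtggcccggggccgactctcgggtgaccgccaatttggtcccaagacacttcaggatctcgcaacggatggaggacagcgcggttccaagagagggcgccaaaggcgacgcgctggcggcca
9130206I24Rik: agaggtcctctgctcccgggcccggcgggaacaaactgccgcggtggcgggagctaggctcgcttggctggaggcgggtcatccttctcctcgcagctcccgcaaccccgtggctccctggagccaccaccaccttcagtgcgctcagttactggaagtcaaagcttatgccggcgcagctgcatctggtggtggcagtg
Foxd2 promoter: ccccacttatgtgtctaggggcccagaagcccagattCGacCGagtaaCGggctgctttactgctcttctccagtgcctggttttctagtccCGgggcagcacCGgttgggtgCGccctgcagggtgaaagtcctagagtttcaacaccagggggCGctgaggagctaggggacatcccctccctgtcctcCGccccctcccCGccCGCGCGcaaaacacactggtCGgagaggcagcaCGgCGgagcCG

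Capitals are used in the promoter alone. It holds 16 CG pairs, where the median of 32851 RefSeq promoters was 6 over the same length and 25.4% held as many. The Foxd2 and 9130206I24Rik counts were low in the ileum and highest in the colon for both genes of the pair.

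Other unnamed transcripts apart lay across a gene that was apart as well. Gm15557 had 2, 180 and 2 counts and overlaps Gdf5 on the other strand. Gm11532 had 8, 100 and 45 counts and overlaps Sp6, and Gm14318, now Gata5os, had 24, 3 and 2 counts and overlaps Gata5. Since the use of strand is not given in the sources used here, the reads of each pair cannot be told apart, and this holds for the values of Gdf5, Sp6 and Gata5 too. Named genes overlap in the same way, Tagln with Pcsk7, Nfix with Lyl1, Aspn with Cenpp, Pklr with Hcn3, Slc25a21 with Pax9, Matn4 with Rbpjl and Fgf1 with Arhgap26, each on the other strand, and Oat with Fgfr2 on the same strand. Paralogues such as Aldh1a1 with Aldh1a7 and Adam1a with Adam1b may also share reads.

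Some unnamed genes have since been named. On the ileum side, 2210415F13Rik is now Lypd8, a secreted protein of the gut epithelium, and was at 5.2, 1.05 and 0.437 RPKM, 4.99-fold (3.93 to 6.4) lower. Gm106 is now Sbspon and was at 3.03, 0.768 and 1.01 RPKM, 3.99-fold (3.28 to 4.88) lower. Gm13318 is now Malrd1, and 6330406I15Rik is now Medag, 7.8-fold (2.68 to 31) and 3.8-fold (2.62 to 5.62) lower. Gm14085 had 136, 24 and 12 counts, 7.37-fold (4.75 to 11.9) lower, beside Slc28a2, to which its longest transcript is 95.9% identical, so that reads could pass between them. On the caecum side, Gm1337 is now Ankrd63 and 5330437I02Rik is now Oacyl, with 2, 58 and 10 counts and 8, 139 and 18 counts. In these the caecum alone was high.

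Among the pseudogenes lower in the caecum, 5 were copies of a single gene of the ribosome. Rpl21, a protein of the large ribosomal subunit, lies on chromosome 5 of mm9, plus strand, 147644466 to 147648608. Rpl21 had 1836, 1161 and 1202 counts, 2.06-fold (1.91 to 2.22) lower. Of 79 features compared that carry ribosomal protein symbols it was the only 1 apart, where the median log2 was -0.23 and the range from -1.04 to -0.04. Among them, Rps4y2 is now typed as a pseudogene, and the feature named Rpl24 is now Zbtb11. Of the 6 pseudogenes compared whose closest coding match was Rpl21, 5 were lower and Gm10163 was within 2-fold, and together they had 1391, 691 and 813 counts. Gm14648 had 418, 185 and 202 counts, 2.94-fold (2.47 to 3.51) lower. Gm12411 had 357, 172 and 220 counts, 2.7-fold (2.24 to 3.26) lower. These were named by the rule, while Gm12944, Gm8526 and Gm14336 were looked up after the values were seen, as was Rpl21. A stretch of the reading frame is shown for Rpl21 and for the lower pseudogenes that align without a gap there, bases 31 to 150 of 483, to show how few bases could tell their reads apart. Capitals mark bases that differ from Rpl21.
Rpl21: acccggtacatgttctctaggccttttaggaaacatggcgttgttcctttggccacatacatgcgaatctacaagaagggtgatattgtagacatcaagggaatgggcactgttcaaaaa
Gm14648: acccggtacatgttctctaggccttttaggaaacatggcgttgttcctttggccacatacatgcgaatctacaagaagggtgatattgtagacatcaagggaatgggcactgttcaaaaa
Gm12411: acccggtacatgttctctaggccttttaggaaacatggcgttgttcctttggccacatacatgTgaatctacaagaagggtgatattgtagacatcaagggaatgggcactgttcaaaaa
Gm14336: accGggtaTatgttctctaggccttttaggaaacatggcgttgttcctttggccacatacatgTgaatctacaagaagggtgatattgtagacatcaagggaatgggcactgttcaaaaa
Gm8526: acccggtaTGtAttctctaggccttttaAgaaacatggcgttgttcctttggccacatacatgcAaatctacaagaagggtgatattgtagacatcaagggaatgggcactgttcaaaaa

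Over these 120 bases the pseudogenes differ from Rpl21 at 0, 1, 3 and 5 places, in the order shown. A read of 100 bases can thus match several of them equally well. The counts of the family cannot be assigned to the gene or to a copy, and how the authors placed such reads is not given in the sources used here. Another pair of this kind was Gm7676, at 522, 241 and 228 counts, and Ifitm1, an interferon-induced membrane protein to which it is 97.5% identical. Ifitm1 was at 48.9, 17 and 19 RPKM, 2.91-fold (2.72 to 3.11) lower, and both were highest in the ileum.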

How the data were processed

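RNA was read from the ileum, the caecum and the colon of the E13.5 mouse embryo, with 1 sample a tissue. Per the file headers, the authors deposited counts and RPKM values per Ensembl gene in 2 columns a tissue. The deposited counts are expected counts, since some hold a fraction of 0.5, and the RPKM values were used as deposited. Per the submitters' processing notes, Bowtie 0.12.7 and DESeq were used, with the mouse build mm9. Neither the counting program nor the annotation nor whether strand was used is given in the sources used here.

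The 2 columns of a tissue belong to 1 sample and differed by less than counting error, with a variance ratio of 0.454 to 0.481, so their mean was rounded to whole numbers and used as 1 library. Library sizes were scaled over the 3 tissues by the TMM method of edgeR 4.0.16 (R 4.3.3). A feature was compared from 20 counts in the higher library. The ratio of scaled counts has an exact Clopper-Pearson 95% interval (scipy 1.17.1), which covers counting error only and takes each count as independent. A ratio against 0 counts was set against a floor of 3 counts per library and is a lower bound. The scripts were tested on simulated data. DESeq2 1.42.0 size factors, total counts, each column alone, count minimums, RPKM plus 0.1 and rounding were tried as alternatives. Shares of RPKM are sums over a list in percent of all features.

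The 71 lists and the comparison itself were chosen with earlier results of these data known. Genes were named by rule. The rule took the 20 genes a direction whose interval lay farthest from no difference, up to 4 such members a direction and 3 abundant members within 2-fold of each list, 12 unnamed transcripts a direction, 12 genes a direction with the largest difference in RPKM, and paralogues or overlapping genes that a result turns on. Hox, unnamed, ribosomal, histone and mitochondrial genes were left out of the first group. Further members were named or given values after these were seen, so that most members apart in the lists are covered. Among them are Zfhx4, Satb1, Lmx1a, Prrx2, Six4, Pou2f3, Sall3, Sall4, Col4a1, Col4a3, Col6a1, Col6a2, Spock1, Ecm1, Matn4, Tnr, Thbs2, Mgp, Tagln, Oat, Crabp1, Slc27a6, Inhba, Hoxb8, Hoxb9, Cdx2 and Epcam. Some members of the lists are not reported here.

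Current names and types of 29558 of the 33762 features were matched by identifier to GENCODE vM21, which also gave the transcript sequences. Its coordinates were not used, and positions of genes are those of the deposited table. Unnamed transcripts were compared with coding transcripts by BLAST 2.17.0. Promoter sequence is from RefSeq (GRCm38.p6). Features that overlap another, 11541 in all, may share reads.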

Additional observations from a re-analysis of the deposited data

How the results depend on the processing

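Under DESeq2 size factors, total counts or either column alone, every count of genes apart stayed within 1.5 times, and 0 results changed direction. Counts depended on how scarce genes were treated. Without a minimum, 1838 genes were higher and 1612 lower, and with a minimum of 100 counts 439 and 268. With RPKM plus 0.1, 535 genes were higher. Where the whole interval had to lie beyond a fold of 2, 397 were higher and 233 lower, and 532 were higher with overlapping features left out. Transcription factors gave 76 higher and 50 lower without a minimum and 31 higher with a minimum of 100. Matrix genes gave 17 lower with RPKM plus 0.1. Metabolic genes gave 60 higher and 61 lower without a minimum, and 18 and 20 with a minimum of 100. Unnamed transcripts gave 575 higher and 630 lower without a minimum, 38 and 21 with a minimum of 100, and 63 and 35 with RPKM plus 0.1. With overlapping features left out, 57 unnamed transcripts were higher. Fewer features enter under the higher minimum and more under none, and a pseudocount draws scarce genes toward a fold of 1. The other 81 values of these counts stayed within 1.5 times. Of the 258 named genes apart, DESeq2 size factors kept 258. Total counts lost Emilin3 and Foxl1. The first column alone lost 7 of 257 (AL672259.1, Gpc2, Itgb6, Matn3, Spdef, Spic and Zfp600) and the second 3 of 257 (Cdh17, Foxl1 and Gsta3), and RPKM plus 0.1 lost 36. Rounding fractions of 0.5 upward, an alternative chosen after seeing the data, lost Gsta3. The list medians of nuclear receptors, ETS factors, proteoglycans, fatty acid oxidation, sulfate and other transferases and Notch genes lay so near 0 that their sign turned with the scaling. No paired analysis was possible because each tissue has 1 sample. With 1 sample a tissue, a difference between tissues and a difference between the dissected pieces cannot be told apart, and depth limits the genes under 20 counts.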

Other observations

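In the lists of lymphoid, macrophage and cartilage markers, the members apart were higher in the caecum. Of all genes compared, 4.59% were higher and 2.52% lower, and of those under 1 RPKM 15.5% and 6.46%. Of 20 spleen and lymphoid markers 9 were compared, and 4 were higher (44.4%) and 0 lower. Cxcl13, a chemokine that gathers B cells, had 206, 681 and 108 counts, 2.54-fold (2.17 to 2.99) higher. Ltb, lymphotoxin beta, had 17, 106 and 44 counts, 4.79-fold (2.86 to 8.54) higher. Il7r and Cd4, receptors found on lymphoid cells, had 7, 40 and 6 and 4, 44 and 16 counts. The list made up 0.0176%, 0.0201% and 0.0159% of all RPKM. Macrophage and granulocyte markers had 2 higher (11.1%) and 0 lower of 18 compared, with 0.00628%, 0.00782% and 0.00699%.

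Cartilage and bone markers had 4 higher (33.3%) and 0 lower of 12 compared, beside 4.59% and 2.52% of all genes, and a median log2 of 0.54. The 4 were Runx2, Col9a1, Comp and Matn3, which were already counted in the factor and matrix lists above. The summed level of the cartilage and bone list was 0.00486%, 0.00824% and 0.00893% of all RPKM, so the colon lay at the level of the caecum. Secretory and endocrine markers of the epithelium had 4 higher (33.3%) and 0 lower of 12 compared, with 0.00433%, 0.00482% and 0.00227%. Markers of glia, mesothelium and red blood cells had 1, 0 and 0 higher and 0, 1 and 1 lower, of 15 compared in each list. The part of these cells in the values of the report was not tested.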
